A study of Rattus norvegicus with 80 samples.

Results

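Of 13010 rat gene identifiers measured at a mean of at least 1 CPM in mammary epithelial cells (MECs), 110 (0.846%) differed from wildtype in the same direction in every library of 3 mutated lines. CPM is the read count of a gene divided by the total of its library, times 1000000. A gene was a member when all 9 MEC libraries of the lines IF, PS and IFPS lay on the same side of all 3 wildtype MEC libraries, and when the mean of each line differed from the wildtype mean by at least 1.3-fold. Of the members, 98 were higher in the lines (0.753% of the identifiers) and 12 were lower (0.0922%). The members were chosen by their CPM in the 12 MEC libraries, so these levels are described and not tested. The count table holds 32883 Ensembl identifiers without gene symbols, and none could be paired with a name, so 4 members are given by identifier and the others by counts and ranges.

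The series concerns the tumor suppressor gene Nf1 in the rat mammary gland before and after tumors form. Nf1 encodes neurofibromin, a GTPase-activating protein that returns Ras from its active, GTP-bound form to its inactive form. Cells that lack it can keep Ras and the kinases below it active for longer. The mammary gland is a tree of ducts lined by luminal and basal epithelial cells, set in a stroma of fibroblasts and adipocytes.

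RNA sequencing was done on 80 libraries of Rattus norvegicus in 19 groups. MECs, fibroblasts and mature adipocytes had 3 libraries each from wildtype, IF, PS and IFPS rats, 12 per cell type. There were 21 libraries of whole mammary pads (6 wildtype, 3 IF, 6 PS, 6 IFPS) and 23 of tumors (5 IF, 9 PS, 9 IFPS), with no wildtype tumor. The labels give IF, PS and IFPS as genotypes without spelling them out, and give no age. MECs and fibroblasts were grown in culture and lysed near confluency, while the series text calls the normal cell types flow sorted. Library totals ran from 17344717 to 37293141 counts, and those of MECs from 21277106 to 31632249 counts. No pair of MEC libraries of 1 line agreed within sampling noise (chi-square per degree of freedom 8.70 to 41.9). The labels do not state whether replicates were separate animals or cultures, so p-values measure the spread between these libraries, which may be technical. Levels of Nf1 and of marker genes of luminal, basal, stromal, blood and vessel cells were not analysed here, since they need gene symbols.

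Most members differed from wildtype MECs by modest folds. The smallest fold among the 3 lines had a median of 1.45 over the higher members and 1.5 over the lower members. It exceeded 2 for 13 members, 12 higher and 1 lower, and was under 1.5 for 66. Over the higher members, the median log2 ratio of a line's mean to the wildtype mean was largest in PS (0.71), with 0.63 for IF and 0.60 for IFPS. PS was also furthest from wildtype over the lower members (-0.94), with -0.63 for IF and -0.75 for IFPS. The line furthest from wildtype was PS for 48 members, IFPS for 35 and IF for 27. The members nearest to the fold limit were at 1.3003, 1.3054 and 1.3057, and the nearest genes outside it were at 1.29996, 1.2908 and 1.2904, all higher in the lines.

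Members spanned a wide range of levels in MECs. Their mean level over the 12 MEC libraries had a median of 5.39 CPM, with 53 of 110 under 5 CPM and 10 over 100 CPM. Means reached 2120 CPM among the higher members and 228 CPM among the lower members; CPM is not corrected for gene length and does not rank genes. The side of wildtype on which each library lies is fixed by the rule, and the sizes varied little. Relative to the wildtype mean, the median log2 ratio of the higher members ran from 0.51 in IF replicate 2 to 0.63 in PS replicate 2, and over the wildtype libraries from -0.07 to 0.05. For the lower members it ran from -0.92 in PS replicate 2 to -0.54 in IFPS replicate 3, against -0.12 to 0.19 in wildtype.

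**Figure D1:**
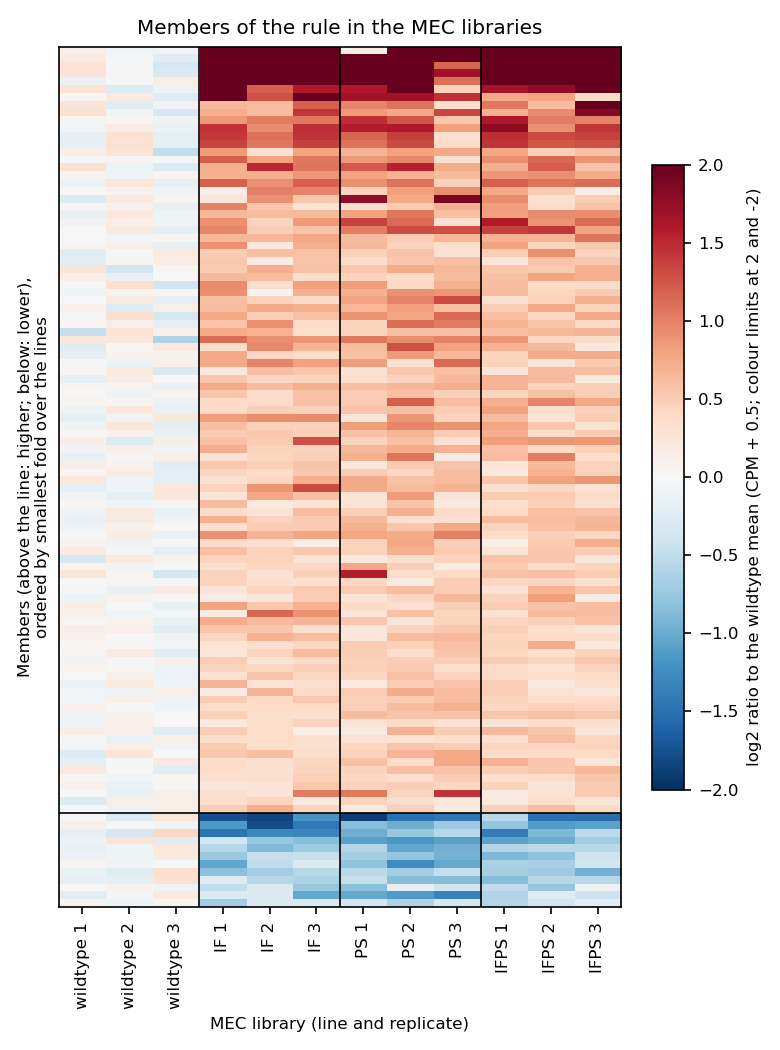
Log2 ratio of each member's level to its wildtype mean (CPM + 0.5) in the 12 MEC libraries. Rows are the 98 higher members above the horizontal line and the 12 lower members below it, ordered by smallest fold; columns are libraries; colours stop at 2 and -2. The 9 libraries of the lines are red in the upper rows and blue in the lower rows, which the rule fixes; PS replicate 3 is paler than the other PS libraries in several of the top rows.

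The set depended on single libraries, chiefly on 1 wildtype library. Without the fold limit, 616 identifiers (4.73%) had all 9 libraries of the lines on 1 side of wildtype, 494 of them higher (3.8%) and 122 lower (0.938%). Wildtype MEC replicate 2 was the wildtype library nearest to the lines for 50 of 110 members, replicate 1 for 35 and replicate 3 for 25. Without replicate 2 the rule chose 455 identifiers, of which 102 were among the 110. Among the lines, PS replicate 3 was nearest to wildtype for 24 members and IFPS replicate 3 for 18, and PS replicate 1 for 5. Scaling with TMM factors in place of column totals gave 88 identifiers, 84 of them members. Thinning every library to the total of the shallowest gave 99, of which 82 were members.

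The 2 higher identifiers printed here were low in wildtype MECs. ENSRNOG00000057054 had 0.0658, 0 and 0 CPM in the 3 wildtype libraries, 2 of 91718882 counts in all. It had 2.42, 2.61 and 2.89 CPM in IF, 0.0708, 2.25 and 2.91 CPM in PS, and 2.54, 2.41 and 2.67 CPM in IFPS. All 9 libraries of the lines lay above wildtype, but PS replicate 1 did so with 2 counts, as many as the highest wildtype library, so that its place rests on library size. No fold is given for it, since the wildtype level rests on 2 counts. ENSRNOG00000061254 had 1.38, 1.11 and 0.917 CPM in wildtype MECs. Its levels were 66.2, 49.0 and 62.8 CPM in IF, 72.5, 58.3 and 10.9 CPM in PS, and 94.2, 86.7 and 112 CPM in IFPS. PS replicate 3 stood lowest among the lines and still far above wildtype. The line means were 52.2-fold (IF), 41.5-fold (PS) and 86.0-fold (IFPS) the wildtype mean.

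The 2 lower identifiers had the largest smallest-line folds among the 12 lower members. ENSRNOG00000026490 had 19.1, 15.8 and 22.9 CPM in wildtype MECs. It had 5.37, 5.05 and 8.23 CPM in IF, 4.85, 6.54 and 6.85 CPM in PS, and 13.1, 6.51 and 6.48 CPM in IFPS. IFPS replicate 1 was the line library closest to wildtype, without overlap. ENSRNOG00000030058 had 4.14, 3.74 and 3.64 CPM in wildtype, 1.45, 0.773 and 1.10 CPM in IF, 1.91, 1.70 and 2.17 CPM in PS, and 2.02, 1.5 and 1.56 CPM in IFPS. The IF libraries lay below all PS and IFPS libraries for this identifier.

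The levels of the members among the 3 lines are a description too, since the rule favours genes that lie alike in the 9 line libraries. For ENSRNOG00000030058 the level in PS exceeded that in IF by 0.80 on the log2 scale. For ENSRNOG00000061254 the level in IFPS exceeded that in PS by 1.05 on the log2 scale. The quasi-likelihood test of edgeR, adjusted here over all genes tested, calls a gene at an adjusted p under 0.05. Among the lines it called 0 of the 110 members (15 at an unadjusted p under 0.05; background 0.184% of 14688 genes), DESeq2 called 4, and edgeR called 1 without IF MEC replicate 3. The same libraries chose the members, so nothing is read from these counts.

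In wildtype tissue, the higher members were not marked by a high level in MECs. Pad levels in this paragraph are those of wildtype pads numbered 1 to 12. The higher members had a median of 3.38 CPM in MECs, 3.35 CPM in fibroblasts, 2.67 CPM in adipocytes and 7.55 CPM in pads. All identifiers at 1 CPM in MECs had medians of 27.5, 20.5, 19.7 and 31.0 CPM in the same order. Pads were the highest of the 4 for 64 of the 98 higher members (65.3%), against 40.5% of all identifiers at 1 CPM in MECs, and MECs for 9 (9.18%), against 32.1%. The lower members had medians of 8.40 CPM in MECs, 23.6 CPM in fibroblasts, 1.07 CPM in adipocytes and 3.15 CPM in pads. Fibroblasts were highest for 6 of the 12 lower members and MECs for 5, against 12% and 32.1% of all those identifiers. The choice of members favours higher members with a low wildtype MEC level and lower members with a high one, so these orders are descriptions. In whole pads and tumors, fewer cells of a type and less RNA per cell cannot be told apart.

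In PS fibroblasts, which the rule did not use, more of the higher members fell than rose. Fibroblasts were not independent of the MEC libraries that chose the members. For all 12 title numbers, deviations from the group mean correlated between the MEC and the fibroblast library of the same number. Here r ran from 0.11 to 0.32 across 11802 genes. Between MECs and pads of the same number r had a median of 0.11, with 7 of 12 over 0.1. For adipocytes the median was 0.04, with 1 of 12 over 0.1. Of 103 members that passed the low-count filter, 32 were called in PS against wildtype fibroblasts, where 21.7% of all 13879 genes were called (10.6% rising, 11.2% falling). Of 27 called higher members, 7 rose and 20 fell; of 5 called lower members, 2 rose and 3 fell. The median log2 change was -0.07 over the higher members and -0.14 over the lower members, against -0.0016 over all genes. A group of 10 members with a shared pattern, described at the end, was chosen over libraries that include these fibroblasts. Higher and lower members together had 9 rising and 23 falling calls. Without those 10 members, all of them higher members, 22 were called, 9 rising and 13 falling. The calls that left were thus all of falling higher members, and the median over the higher members was -0.02. That choice favours such a drop, so these values are a description. The count was 20 without PS fibroblast replicate 1, 17 without PS replicate 2 and 21 without wildtype fibroblast replicate 3.

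In IF fibroblasts, 10 of 103 members were called against a background of 7.66% (3.37% rising, 4.29% falling). Of the called genes, 7 were higher members that rose and 3 were lower members that fell. The median log2 change was 0.11 over the 91 higher members tested and -0.43 over the 12 lower ones. This count rested on single libraries: it was 6, 4 and 3 without IF fibroblast replicates 1, 2 and 3, 6 without wildtype replicate 2 and 1 without wildtype replicate 3. In IFPS fibroblasts edgeR called 0 of 103 members (23 at an unadjusted p under 0.05), with a background of 0.0648%, and DESeq2 called 6. All background shares are those of edgeR at the adjusted threshold. Shares of all genes for DESeq2, or at an unadjusted p under 0.05, are not given here. Counts of members of those kinds therefore have no background. Without wildtype fibroblast replicate 3 edgeR called 7 members in IFPS, and without IFPS replicate 1 it called 1.

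The rule itself, applied to fibroblasts, chose 48 of 12143 identifiers (0.395%). It shared 1 identifier with the 110 members, in the same direction, which is 0.909% of the members and 2.08% of the fibroblast list.

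ENSRNOG00000061254 moved in PS fibroblasts against its direction in MECs. It had 42.9, 31.6 and 21.9 CPM in wildtype fibroblasts and 0.376, 0.667 and 0.483 CPM in PS. All 3 PS libraries lay far below wildtype, and the log2 change was -5.90 ± 0.47 (SE; edgeR adjusted p = 0.000119). IF had 25.8, 15.4 and 13.5 CPM and IFPS 25.4, 12.1 and 26.0 CPM, and neither was called. ENSRNOG00000057054 was near zero in some fibroblast libraries, with 1.93, 1.87 and 0.0731 CPM in wildtype and 0.0385, 2.16 and 0 CPM in IFPS. It had 1.74 to 2.30 CPM in IF and 1.62 to 1.95 CPM in PS, and was not called in any of the comparisons. Its lowest pad was at 0.117 CPM in wildtype (median 2.10), 0.0607 CPM in PS (1.79) and 0 CPM in IFPS (1.88). Its lowest tumor was at 0.0552 CPM in IF (median 1.39) and 0.0811 CPM in IFPS (0.545). Libraries near zero thus occurred in wildtype, IF, PS and IFPS.

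Both lower identifiers were low in fibroblasts of IF and PS too. ENSRNOG00000026490 had 17, 18.1 and 24.3 CPM in wildtype, 6.70, 7.63 and 7.75 CPM in IF, 7.23, 7.84 and 6.86 CPM in PS, and 24.0, 6.94 and 6.54 CPM in IFPS. IF and PS did not overlap with wildtype, whereas IFPS replicate 1 lay within the wildtype range. It fell by 1.36 ± 0.40 (SE) on the log2 scale in PS (edgeR adjusted p = 0.0323). The log2 difference was -1.39 ± 0.40 in IF (edgeR adjusted p = 0.0568). The PS call was lost without any 1 of PS replicates 1, 2 and 3 or wildtype replicates 2 and 3 (edgeR adjusted p 0.0544 to 0.103). Without IFPS replicate 1 the IFPS log2 difference was -1.60 (edgeR adjusted p = 0.00329), against -0.73 with it (0.300). The library titles give IFPS replicate 1 the number 4 in both cell types, and it was also the highest IFPS library in MECs.

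ENSRNOG00000030058 had 1.11, 1.72 and 2.48 CPM in wildtype fibroblasts, 0.728, 0.718 and 0.556 CPM in IF, 0.607, 0.445 and 0.617 CPM in PS, and 1.39, 1.28 and 0.627 CPM in IFPS. IF and PS lay below wildtype in every library, and IFPS overlapped with it. It fell by 1.59 ± 0.34 (SE) in PS (edgeR adjusted p = 0.0110) and by 1.37 ± 0.35 in IF (0.0378) on the log2 scale. The IF call was lost without any 1 of IF replicates 1, 2 and 3 or wildtype replicates 2 and 3 (edgeR adjusted p 0.0670 to 0.141), and the PS call held without each library.

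In IF adipocytes, where 48.2% of all 14304 genes were called (26.5% rising, 21.7% falling), 53 of 103 members were called. Of the 47 called higher members, 30 rose and 17 fell. All 6 called lower members rose, opposite to their direction in MECs. The median log2 change of the 10 lower members tested was 1.45, against 0.01 over all genes and 0.13 over the higher members. In wildtype the 12 lower members had a median of 1.07 CPM in adipocytes and 23.6 CPM in fibroblasts. The cell content of the adipocyte libraries was not tested. PS adipocytes had 2 called members, both higher members that fell, against a background of 0.378% (0.266% falling). That count was 0 without any 1 of PS replicates 1, 2 and 3 or wildtype replicates 2 and 3, and 4 without wildtype replicate 1. In IFPS adipocytes edgeR called 0 members (11 at an unadjusted p under 0.05; background 0.0%), and DESeq2 called 4. The rule applied to adipocytes chose 13 of 12376 identifiers (0.105%), 0 of them members.

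ENSRNOG00000026490 went the other way in IF adipocytes than in IF MECs. It had 0.510, 0.471 and 0.512 CPM in wildtype adipocytes and 7.42, 2.10 and 4.19 CPM in IF. No IF library overlapped with wildtype, and the gene rose by a log2 change of 3.24 ± 0.49 (SE; edgeR adjusted p = 0.000652). PS had 0.259, 0.451 and 0.617 CPM and IFPS 0.344, 0.311 and 0.0966 CPM, neither called. ENSRNOG00000061254 was spread widely in adipocytes, at 1.02 to 5.80 CPM in wildtype, 6.95 to 17.7 CPM in IF, 0.963 to 9.20 CPM in IFPS, and 1.06, 30.4 and 32.6 CPM in PS. IF lay above wildtype, PS and IFPS overlapped with it, and none of the 3 lines was called.

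Whole pads gave few calls of members. With the set of title numbers as a covariate, edgeR called 0 of 105 members in IF (4 at an unadjusted p under 0.05; background 0.0%; DESeq2 0). It called 0 in PS (7 at an unadjusted p under 0.05; background 0.0061%; DESeq2 1) and 0 in IFPS (8 at an unadjusted p under 0.05; background 0.0%; DESeq2 0). The median log2 change of the higher members was -0.04, 0.05 and 0.04 for IF, PS and IFPS, and that of the lower members -0.18, -0.16 and -0.16. In the pads numbered 1 to 12 alone, 1 member was called, a higher member that rose in PS (background 0.0497%, 0.0435% rising); edgeR called 0 in IF (background 0.0124%) and 0 in IFPS (background 0.0%) there. At an unadjusted p under 0.05 there were 35 members in PS, 16 in IF and 12 in IFPS. The share of all genes under that limit is not given. Nothing is therefore read from the counts at an unadjusted p in pads. In the pads numbered 13 to 21 alone, edgeR called 0 in PS (34 at an unadjusted p under 0.05; background 0.0%) and 0 in IFPS (15; background 0.0%). The rule applied to the pads numbered 1 to 12 chose 48 of 14127 identifiers (0.34%). Of these, 3 were members (2.73% of the members, 6.25% of the pad list), and 0 had the same direction as in MECs.

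**Figure D2:**
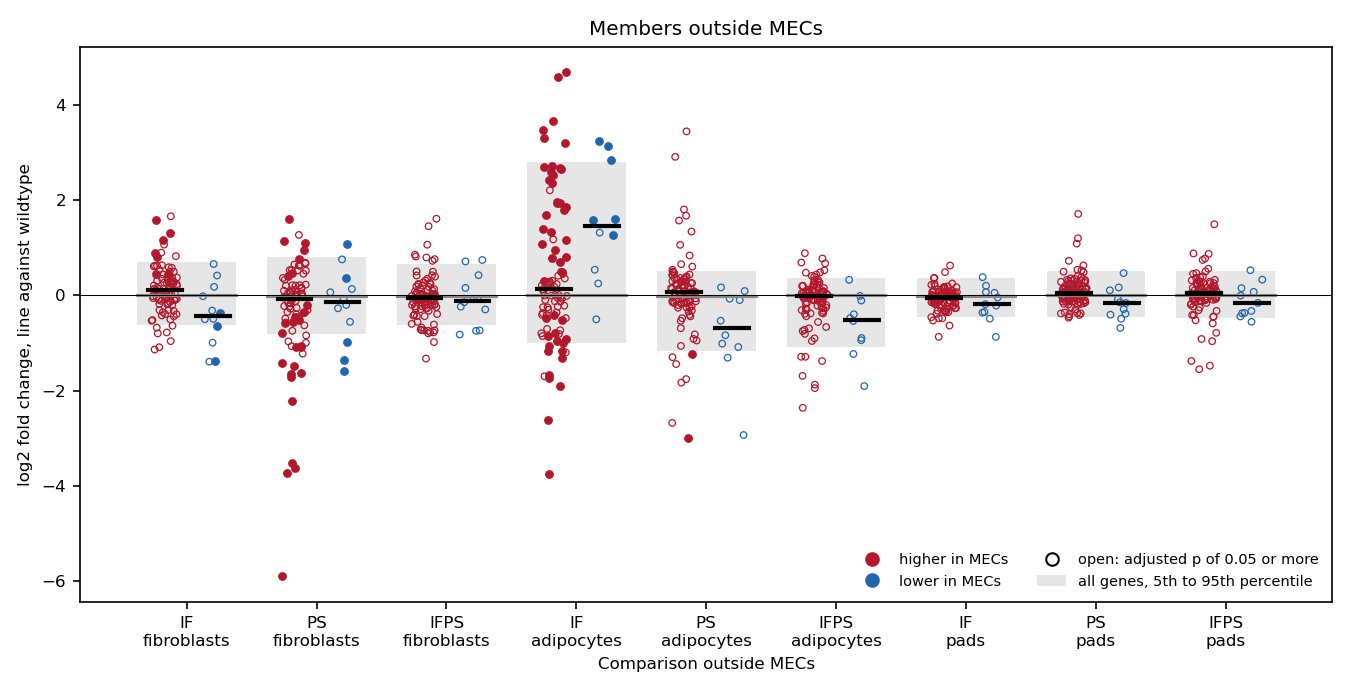
Log2 fold change of each member against wildtype in the 9 comparisons outside MECs (edgeR). Red points are members higher in MECs and blue points members lower in MECs; filled points had an adjusted p under 0.05; black bars are medians, grey boxes the 5th to 95th percentile of all genes and grey lines their median. In PS fibroblasts 20 filled red points lie below 0 and 7 above; in IF adipocytes the 6 filled blue points lie above 0; pads have no filled point.

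Over these 9 comparisons, 33 of the 110 members were never called; of all identifiers at 1 CPM in MECs, 59.3% were called at least once. Of the 98 higher members, 30 were called only as rising and 34 only as falling, where 27.6% and 27.4% of all those identifiers were. Without IF adipocytes, which gave most calls, 71 members were never called, and 24.4% of all those identifiers were called. Then 10 higher members were called only as rising and 21 only as falling, against 11.3% and 13% of all. The largest number of calls in the MEC direction was 3 of 9, reached by 3 higher members. The share of all identifiers called as often is not given, so nothing is read from that count.

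Tumors were compared with pads of their own line, and 108 members were tested. In PS tumors 40 members were called, 32 rising and 8 falling, against a background of 38.9%. In IF tumors 23 were called, 18 rising and 5 falling (background 23.3%), and in IFPS tumors 22, with 16 rising and 6 falling (background 27.9%). Of all genes, 10.1% rose and 13.2% fell in IF tumors, 18.1% rose and 20.8% fell in PS tumors, and 15.6% rose and 12.3% fell in IFPS tumors. The higher members had a median log2 difference between tumors and pads of 0.45 in IF, 0.31 in PS and 0.08 in IFPS, where all genes had 0.05, 0.01 and 0.09. Of the members, 7 rose in tumors of all 3 lines, as did 3.65% of all genes.

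The tumor counts shifted with single libraries and with the pads in the shared fit. In IF, the count was 9, 10 and 12 without IF pads 1, 2 and 3, 15 without IF tumor 3 and 14 without IF tumor 4. In IFPS it was 37 without IFPS tumor 6. With pads numbered 1 to 12 alone, IF tumors had 14 called members, PS tumors 19 and IFPS tumors 7. All IF pads carry such numbers, so for IF only the pads of the other lines in the shared fit changed. Shares of all genes called in these alternative fits are not given, so these counts have no background.

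ENSRNOG00000026490 was narrow in PS pads, from 7.71 to 9.03 CPM with a median of 8.64, and lower in PS tumors, from 1.03 to 6.17 CPM with a median of 3.29. The groups did not overlap, and it fell by 1.55 ± 0.36 (SE) on the log2 scale (edgeR adjusted p = 0.00119). IF tumors (4.58 to 8.53 CPM) overlapped with IF pads (5.71 to 7.85 CPM), and IFPS tumors (2.74 to 13 CPM) with IFPS pads (8.14 to 10.1 CPM). ENSRNOG00000030058 had 1.06 to 3.20 CPM in IF tumors and 0.460 to 1.41 CPM in IF pads, and was not called in tumors of any line. Without PS tumor 5 its log2 difference in PS was -1.02 (edgeR adjusted p = 0.0484), against -0.71 with it (0.180).

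**Figure D3:**
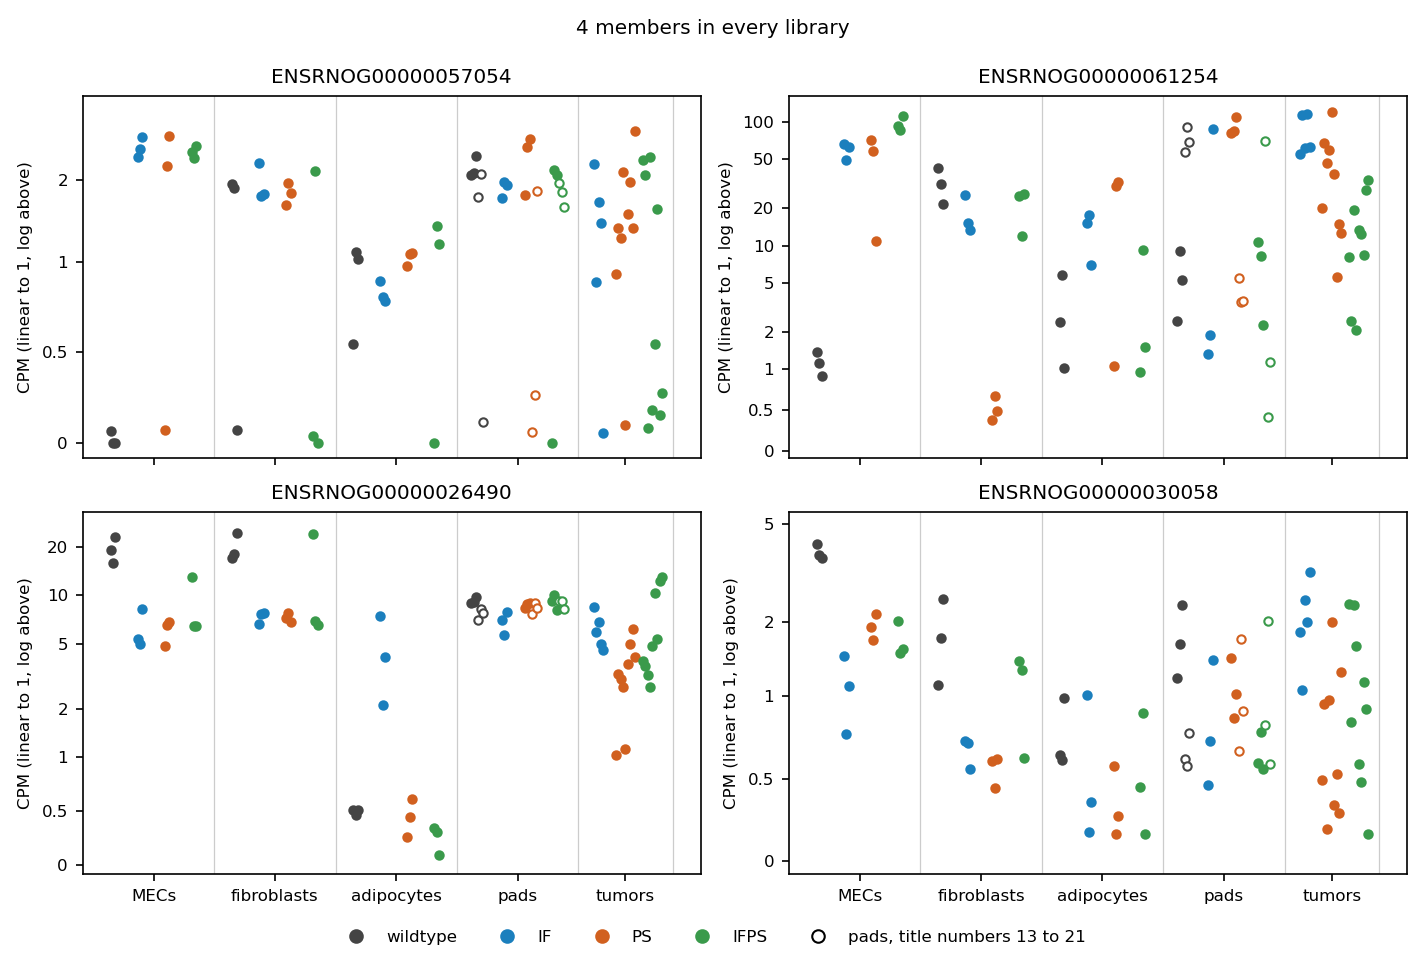
Level of the 4 identifiers in all 80 libraries, in CPM on an axis that is linear to 1 and logarithmic above. Each point is a library, coloured by line and ordered by tissue; open points are pads with title numbers 13 to 21. In MECs wildtype lies below the lines in the upper panels and above them in the lower panels; ENSRNOG00000061254 lies below 1 CPM in all PS fibroblasts.

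In pads the level of ENSRNOG00000061254 was high or low by library, with both states within wildtype, IF, PS and IFPS. Wildtype pads 1 to 3 had 2.43, 8.96 and 5.22 CPM, and wildtype pads 4 to 6 had 57.7, 90.9 and 69.3 CPM. PS pads showed the reverse order, with 82.6, 84.9 and 110 CPM in pads 1 to 3 and 5.49, 3.50 and 3.55 CPM in pads 4 to 6. IF pads had 1.31, 1.87 and 88.6 CPM, so that 1 of 3 was high. IFPS pads had 10.7, 8.26, 2.27, 70.2, 0.420 and 1.14 CPM, with pad 4 far above the others. IF tumors ran from 55.0 to 117 CPM, PS tumors from 5.61 to 122 CPM with a median of 38.1, and IFPS tumors from 2.05 to 34.2 CPM with a median of 12.4. IF tumors lay above all IFPS tumors, and PS tumors overlapped with both. Against pads of the same line it was not called in any tumor comparison; without IF pad 3 the log2 difference in IF tumors was 5.71 (edgeR adjusted p = 0.0458), against 1.41 with it (0.449).

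A small group of members shared this pattern. Likeness was measured as Pearson's r with ENSRNOG00000061254 over the 68 libraries outside MECs, on log2(CPM + 0.5) centred on the mean of each tissue. Of 103 members compared, 9 had r over 0.5 (8.74%), and of the other genes 6 did (0.0426%), among 14189 identifiers in all. All 9 were higher members, 7 of them over 2-fold, and the largest r was 0.91. The reference identifier and the limit on r were chosen after the values were seen, and the 68 libraries share tissues and lines, so the count is a description with no test. Which genes these are was not analysed here.

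The median level of these 10 members, the reference included, follows that of the reference by the choice of the group, and is given as a description. On the centred log2 scale it ran in MECs from -1.26 to -1.08 in wildtype, from 0.21 to 0.54 in IF and from 0.43 to 0.83 in IFPS. In PS MECs it was 0.65, 0.76 and -0.65, so that replicate 3 lay between wildtype and the other libraries. In fibroblasts it was 0.46 to 1.07 in wildtype and -1.13 to -0.84 in PS. Wildtype pads 1 to 3 had -0.77 to -0.37 and pads 4 to 6 had 0.88 to 1.23, while PS pads had 0.45 to 1.15 and -0.79 to -0.56. In tumors the level was -0.03 to 1.34 in IF, -0.30 to 1.3 in PS and -1.30 to -0.03 in IFPS. The 22 called in PS fibroblasts without these 10 members, in place of 32, come from a comparison added after the data were seen, on a group chosen over libraries that include those fibroblasts.

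**Figure D4:**
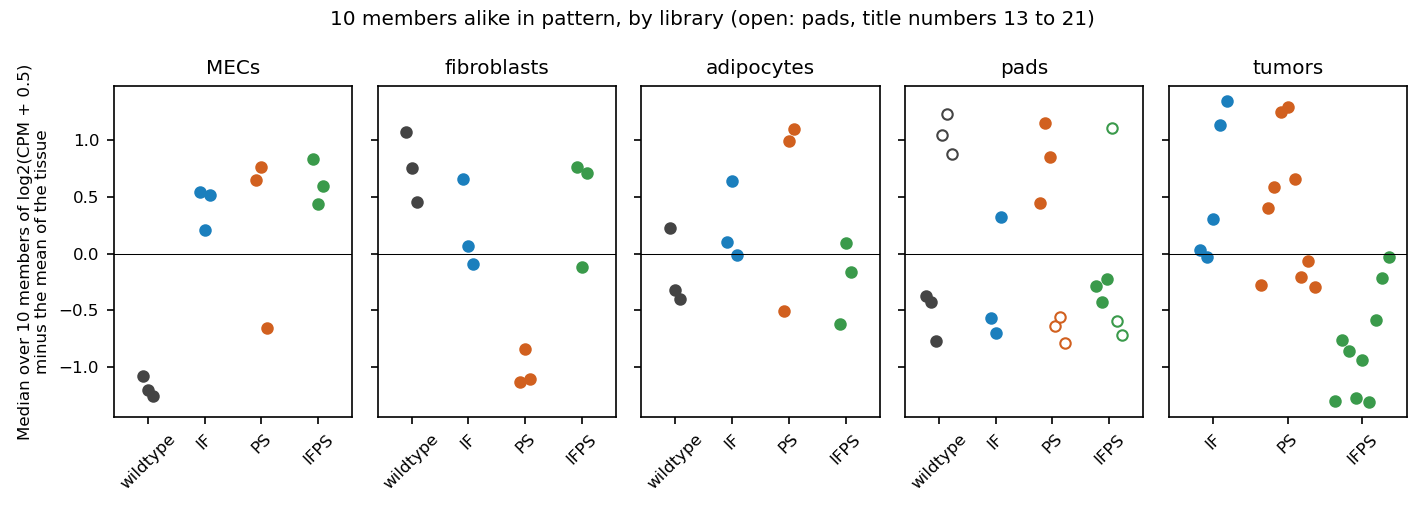
Median over the 10 members alike in pattern of log2(CPM + 0.5), minus the mean of the tissue, in each library. Columns are lines within each tissue, points are libraries, and open points are pads with title numbers 13 to 21. Wildtype is lowest in MECs and high in fibroblasts, PS is lowest in fibroblasts, and wildtype and PS pads change places between the filled and open points.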

How the data were processed

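The deposited values are raw read counts for each gene in 80 poly(A) libraries. The submitters' processing notes name Trim Galore, STAR 2.5.2b and the rat build Rnor_6.0; the counting tool, annotation and strand setting are not given in the sources used here, so genes with near-identical, overlapping or antisense partners are uncertain. Libraries were grouped by their description labels. The members and lists were chosen with earlier results of these data known. Columns belonging to other samples numbered 0. Identifiers matched to a symbol in the reference of 47357 genes numbered 0, so the gene lists and marker lists could not be applied and sequences are not shown. Without symbols, 2 higher and 2 lower members were printed, those with the largest smallest-line fold; this choice among members was settled after values had been seen.

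Tests outside MECs used the quasi-likelihood test of edgeR 4.0.16 (R 4.3.3) on the counts, with TMM factors, filterByExpr and Benjamini-Hochberg adjustment over all genes tested. Each normal tissue had 1 fit over its 4 lines, with the numbering of pads (titles 1 to 12 against 13 to 21) as a covariate; tumors and pads of the mutated lines had 1 fit. Comparisons with wildtype within a tissue share the wildtype libraries. SE is the log2 change divided by the root of F. Alternatives were DESeq2 1.42.0 (on genes passing the same filter, with outlying counts replaced in large groups), RLE factors, no filter, fits of only the groups compared, parts of the pads, and each library left out. Levels are CPM of the column total.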

Additional observations from a re-analysis of the deposited data

Results flagged for a closer look

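Each of the 4 identifiers was examined in each group of 4 to 10 libraries. Of these 24 combinations, 4 had 1 library far from the others. A nominal chance rate of about 1 in 20 need not hold for levels that are high or low by library, and the combinations share libraries. The count of 4 is therefore a description. ENSRNOG00000057054 had a lowest library of 0.117 CPM in wildtype pads and of 0 CPM in IFPS pads. In IFPS pads, ENSRNOG00000061254 had a highest library of 70.2 CPM, and ENSRNOG00000030058 a highest library of 2.01 CPM.

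For 2 identifiers every library of a line lay on opposite sides of wildtype in different cell types; the difference itself was not tested. ENSRNOG00000061254 in PS was above wildtype in all MEC libraries and below it in all fibroblast libraries, where the log2 ratio of mean CPM was -5.98. ENSRNOG00000026490 in IF was below wildtype in all MEC and fibroblast libraries and above it in all adipocyte libraries, with a log2 ratio of 3.20. The cell content of the libraries was not tested.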

How the results depend on the processing

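Of the alternatives for counts of members other than leaving out a library, 65 stayed within 1.5 times the count reported and 14 did not. DESeq2 called 18 members in IF fibroblasts, 6 in IFPS fibroblasts, 7 in PS adipocytes, 4 in IFPS adipocytes, 1 in PS pads and 4 among the MEC lines. The shares of all genes that DESeq2 called are not given, so these counts cannot be set against the edgeR backgrounds. Fits of only the groups compared gave 3 in IF fibroblasts and 10 in IFPS tumors. Pads numbered 1 to 12 alone gave 1 in PS pads, 14 in IF tumors, 19 in PS tumors and 7 in IFPS tumors. For these tumor counts and the fits of only the groups compared, shares of all genes are not given either. The rule chose 57 members at a mean of 5 CPM and 44 at 1.5-fold, fewer by construction; elsewhere the cause was not tested.

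Leaving out 1 library at a time gave 106 to 455 members of the rule. Called members ranged from 1 to 12 in IF, 17 to 27 in PS and 0 to 7 in IFPS fibroblasts, from 43 to 56 in IF, 0 to 4 in PS and 0 to 0 in IFPS adipocytes, and from 0 to 0 in IF, PS and IFPS pads. They ranged from 9 to 25 in IF, 33 to 41 in PS and 15 to 37 in IFPS tumors, and from 0 to 1 among the MEC lines. Where a group fell to 2 libraries the spread was shared with the other groups.

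For the printed identifiers, all sign changes were in differences that were not called. Without a filter ENSRNOG00000057054 in IF adipocytes was at -0.032 and ENSRNOG00000026490 in IFPS pads at 0.0043. With RLE factors ENSRNOG00000061254 in IFPS tumors was at 0.021. With 1 library left out, added after the data were seen, ENSRNOG00000057054 ranged from -0.036 to 0.96 in PS fibroblasts, -0.23 to 0.14 in IF adipocytes, -0.51 to 0.57 in IFPS adipocytes and -0.42 to 0.16 in IFPS pads. ENSRNOG00000061254 ranged from -1.22 to 1.19 in IFPS adipocytes, -3.74 to 1.08 in IF pads and -0.38 to 1.74 in IFPS tumors. ENSRNOG00000026490 ranged from -0.41 to 0.20 in PS adipocytes and -0.037 to 0.037 in IFPS pads, and ENSRNOG00000030058 from -0.30 to 0.12 in PS pads. Without a filter ENSRNOG00000026490 in IF fibroblasts reached an edgeR adjusted p of 0.0460. The level of ENSRNOG00000057054 in wildtype MECs rests on 2 counts over the 3 libraries.

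No paired analysis was possible because the groups compared within a tissue share no title number. The same numbers recur across tissues, which no comparison with wildtype crosses.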
